A study of Mus musculus with 12 samples.

Results

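The NF-kB system was followed in mouse brain through 10 genes: the Rel-family subunits Nfkb1, Nfkb2, Rela, Relb and Rel, the inhibitors Nfkbia, Nfkbib, Nfkbie and Nfkbiz, and the ubiquitin-editing inhibitor Tnfaip3. They were taken by name from a deposited table of 56748 genes, which lists all 10 of 10, and all 10 were high enough to be tested among 19571 genes. Brains came from 12 adult C57BL/6 mice, an inbred laboratory strain, in 3 arms of 4 with 2 females and 2 males each, and each mouse gave 1 library. The PBS arm received phosphate-buffered saline. The LPS arm received lipopolysaccharide, a component of the outer membrane of Gram-negative bacteria, at 0.5 mg/kg in daily injections into the abdominal cavity up to day 7. The LPS+DMA arm received the same LPS and N,N-dimethylacetamide (DMA), a polar organic solvent, at a dose that the labels leave out. No arm received DMA without LPS. No genotype other than the strain is given, ages are given no more closely than adult, and the brains were taken on day 7. Values are FPKM, the fragments of a gene per kilobase of its length and per library size, so levels can be set side by side between genes. The series' title names an attenuation by DMA of neuroinflammation induced by LPS, and the 3 arms give 3 pairwise comparisons.

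NF-kB is a dimer of Rel-family proteins that binds kappaB sites in DNA. In resting cells inhibitor proteins of the IkB family hold the dimer in the cytoplasm, and an IkB kinase complex, switched on downstream of Toll-like, interleukin and TNF receptors, marks the inhibitor for destruction so that the dimer enters the nucleus. Rela, Relb and Rel carry activation domains, while Nfkb1 and Nfkb2 encode precursors that are processed to the DNA-binding partners. Several of the inhibitors, among them Nfkbia, Nfkbie and Tnfaip3, are themselves known NF-kB targets and close a negative feedback loop. In brain the pathway is best known in microglia, astrocytes and endothelium. Transcript levels do not measure the location or the DNA binding of the dimers, so none of the values below is a measure of NF-kB activity.

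Promoters of 3 members are shown first because the differences between libraries described below are those of Nfkbia and Nfkbie, and because Nfkb2 is the member whose LPS and PBS values did not overlap. Each is 300 bases, from 250 bases before the RefSeq start site to 50 after it, written 5′ to 3′ on the gene's strand, with matches to the kappaB consensus in capitals. They were taken from RefSeq on build GRCm38.p6, while the expression values refer to GRCm39. The Nfkbia promoter lies at chr12:55492598-55492897 on the minus strand, that of Nfkbie at chr17:45555450-45555749 on the plus strand, and the first of 3 listed for Nfkb2 at chr19:46304487-46304786 on the plus strand.
Nfkbia: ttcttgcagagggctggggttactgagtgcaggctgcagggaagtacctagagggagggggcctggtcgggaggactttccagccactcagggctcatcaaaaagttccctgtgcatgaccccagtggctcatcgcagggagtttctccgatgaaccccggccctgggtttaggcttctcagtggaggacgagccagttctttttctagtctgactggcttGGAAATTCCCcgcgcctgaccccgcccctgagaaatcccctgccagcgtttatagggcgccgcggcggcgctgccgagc
Nfkbie: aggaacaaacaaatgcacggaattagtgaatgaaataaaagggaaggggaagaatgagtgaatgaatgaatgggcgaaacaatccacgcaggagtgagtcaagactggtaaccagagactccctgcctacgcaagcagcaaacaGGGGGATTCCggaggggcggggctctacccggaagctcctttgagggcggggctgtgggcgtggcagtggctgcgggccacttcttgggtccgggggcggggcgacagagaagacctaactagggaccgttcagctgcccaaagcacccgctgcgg
Nfkb2: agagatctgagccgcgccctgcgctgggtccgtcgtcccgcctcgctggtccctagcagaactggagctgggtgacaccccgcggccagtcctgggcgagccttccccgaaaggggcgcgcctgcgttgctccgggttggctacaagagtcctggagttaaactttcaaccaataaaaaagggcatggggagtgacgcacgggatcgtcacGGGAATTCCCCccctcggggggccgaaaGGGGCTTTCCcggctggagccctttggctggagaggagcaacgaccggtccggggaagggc

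The match in the Nfkbia promoter, GGAAATTCCC, begins 29 bases before the start site. The match in the Nfkbie promoter, GGGGGATTCC, begins 106 bases before it. The Nfkb2 promoter holds GGGAATTCCCC, where matches overlap, 39 bases before the start site, and GGGGCTTTCC 11 bases before it. The kappaB consensus, GGGRNNYYCC (R, A or G, Y, C or T, N, any base), was searched on both strands. A match on the opposite strand, as in Nfkbia, is printed as its reverse complement. Of all 32851 promoters of this length 8.46% held the consensus. A looser form, GGGNNNNNCC, which every consensus match also meets, was present in 50.8%. Promoters were listed for 7 members in 10 windows, which overlap in part for Nfkb2. The consensus was held by 7 of the 10 windows. The 8.46% is likewise a share of windows, and no share per gene was computed. At least 1 window held the consensus in 5 of the 7 members. They are Nfkbia, Nfkbie, Nfkb2, Rel, with GGGAAATCCCC beginning 92 bases before the start site, and Tnfaip3, with GGAAATCCCC 12 bases before the first of its start sites. Nfkbib and Rela had no match in the window. A match is a run of letters, and binding was not measured.

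The libraries differed in the brain regions they held, although the labels name whole brain. Gabra6, which marks granule cells of the cerebellum through a GABA receptor subunit, ran from 15.6 to 114 FPKM in PBS female replicate 1, LPS female replicate 1, LPS male replicate 1 and LPS male replicate 2. It was listed at 0 in 7 of the other 8 and at 0.170 in LPS+DMA male replicate 2. These 4 libraries, called those with cerebellar signal here, include 3 of the 4 LPS libraries and none of LPS+DMA, so that LPS female replicate 2 alone separates the LPS label from the region in that comparison. The summed FPKM of 10 cerebellum markers was 354 to 1297 in them and 69.9 to 158 in the others, and that of 8 forebrain markers 70.3 to 216 and 259 to 539. Summed choroid plexus markers reached 2002 FPKM in LPS, against at most 412 in PBS and 497 in LPS+DMA, and the lowest LPS library was at 253. Depth recovered from the FPKM steps was 27.5 to 41.4 M reads (M, megareads), and ribosomal RNA took 0.0499% to 10.9% of the reads, the lowest share being that of LPS female replicate 2. Single members rested on 26 to 1570 reads per library.

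The levels of the 10 genes spanned a wide range. Nfkbia, which encodes the classical inhibitor IkB-alpha, was the highest member in all 12 libraries, with 11.4 ± 5.96 FPKM (SD over 12 libraries). Nfkbib, a second classical inhibitor, followed at 6.81 ± 1.29 and Rela at 6.16 ± 1.18. Nfkbib lay above Rela in 10 of 12 libraries, by less than their spread over libraries. Nfkb1 stood at 1.85 ± 0.315 FPKM, below Rela and above Relb in all 12 libraries. The other 6 lay close together. Relb averaged 1.07, Nfkb2 0.992, Nfkbie 0.954, Nfkbiz 0.865, Tnfaip3 0.692 and Rel 0.672 FPKM. Neighbours in that order kept their places in only 4 to 9 of 12 libraries and did not differ beyond their spread. Rela accounted for 51.4% to 64.7% of the FPKM summed over the 5 subunits, and Nfkbia for 47.8% to 71.6% of that over the 5 inhibitors.

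No member passed the test in any comparison. By limma over all genes tested, with a Benjamini-Hochberg adjusted p under 0.05 as the threshold, 0 of 10 passed in LPS against PBS, where 0.0102% of all genes did. For LPS+DMA against LPS it was 0 of 10, where 9.67% of all genes did, 5.79% higher and 3.88% lower. The count for LPS+DMA against PBS was 0 of 10, where 0.0102% did. At an unadjusted p under 0.05 the counts of members were 0, 1 and 0, the 1 being Nfkbie. Of all genes 2145, 5564 and 2235 had such a p (10.96%, 28.4% and 11.4%). With voom on recovered reads the counts of members past the adjusted threshold were also 0 in each comparison. A miss of the threshold does not show that a gene did not change, and the intervals say how large a change remains possible. Over the 10 members the 95% intervals of the log2 change ran from -0.53 to 1.06 in LPS against PBS, from -1.34 to 0.94 in LPS+DMA against LPS and from -0.92 to 1.10 in LPS+DMA against PBS. The median change of the members was 0.036, -0.064 and 0.012 in the 3 comparisons, beside -0.0093, 0.010 and 0.00014 for all genes. All changes are on the log2(FPKM + 1) scale, which understates the change of genes near or under 1 FPKM. The first and the second comparison share the LPS libraries, so they are not independent of each other. In bulk tissue, fewer cells of a type and less RNA per cell cannot be told apart.

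**Figure D1:**
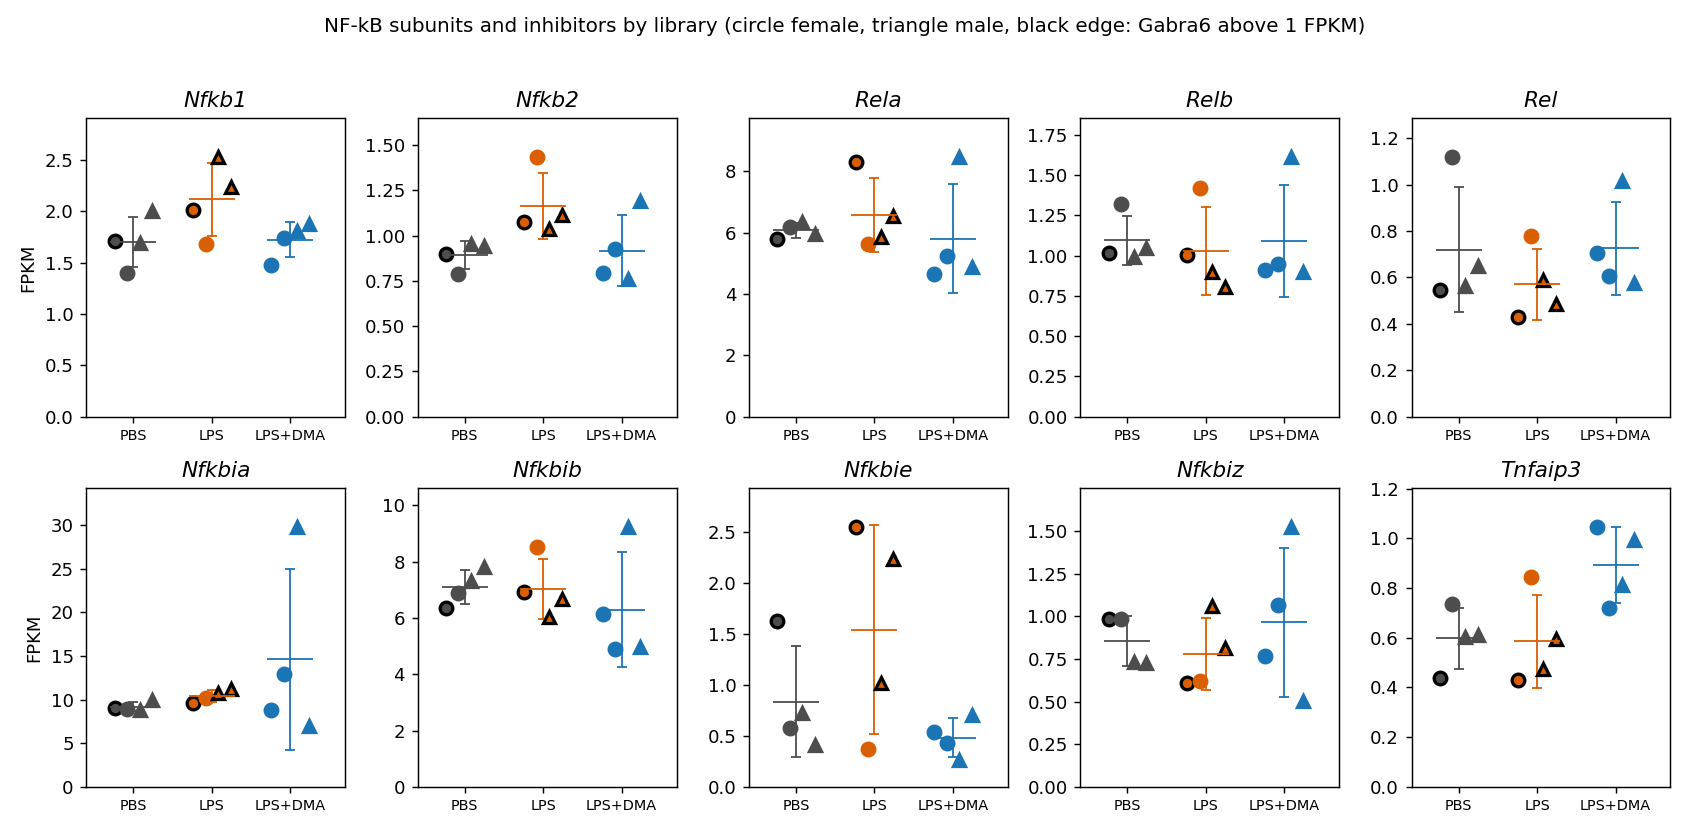
FPKM of the 10 genes (vertical axes, each from 0) in the 3 arms, with circles for females, triangles for males, a black edge for the 4 libraries with Gabra6 above 1 FPKM, and the mean and SD of 4 libraries as bars. Nfkbie is highest in the black-edged libraries, and Nfkbia in 1 LPS+DMA male stands at 29.8 FPKM.

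**Figure D2:**
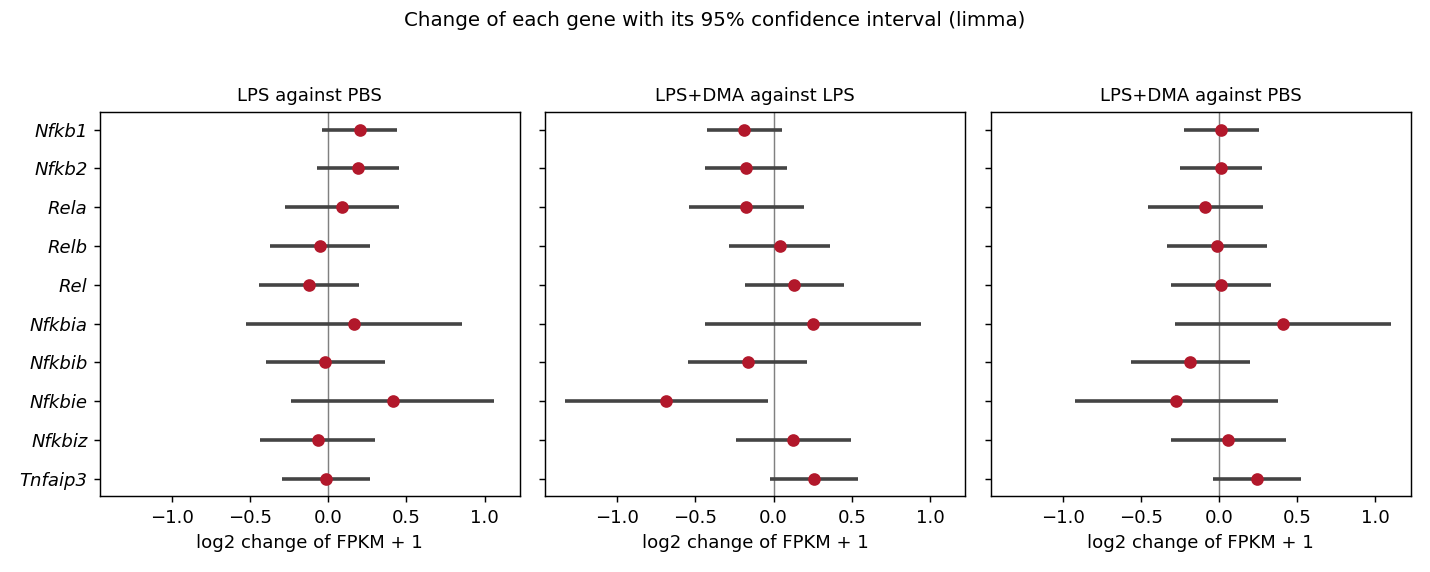
The log2 change of FPKM + 1 of each gene (points) with its 95% confidence interval (lines) by limma in the 3 comparisons. Every interval but that of Nfkbie in LPS+DMA against LPS, from -1.34 to -0.036, includes 0.

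Among the subunits, Nfkb1 and Nfkb2 had the lowest unadjusted p-values. Nfkb1 (ENSMUSG00000028163), the precursor of the partner in the classical dimer with Rela, lies on chromosome 3 from 135290416 to 135397308 on the minus strand (GRCm39). It stood at 1.72 and 1.40 FPKM in the PBS females, 1.69 and 2.00 in the PBS males, 2.02 and 1.68 in the LPS females, 2.53 and 2.24 in the LPS males, 1.48 and 1.74 in the LPS+DMA females and 1.81 and 1.88 in the LPS+DMA males. The LPS libraries were the highest on average, 2.12 ± 0.357 (SD, n = 4) against 1.70 ± 0.248 in PBS and 1.73 ± 0.174 in LPS+DMA, and the arms overlapped. The log2 change was 0.20 in LPS against PBS (SE 0.11, limma adjusted p = 0.528), -0.19 in LPS+DMA against LPS (adjusted p = 0.283) and 0.015 in LPS+DMA against PBS (adjusted p = 0.967). The last of these turned below 0 when any of 3 single libraries was left out, the lowest value being -0.022 without LPS+DMA female replicate 2. Over 26 alternatives the change in LPS against PBS ran from 0.018 to 0.31, and that in LPS+DMA against LPS from -0.31 to -0.051. LPS female replicate 2, the LPS library without cerebellar signal, stood at 1.68 FPKM.

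Nfkb2 (ENSMUSG00000025225), the precursor used in the alternative pathway with Relb, lies on chromosome 19 from 46292759 to 46300824 on the plus strand (GRCm39). It stood at 0.898 and 0.786 FPKM in the PBS females, 0.953 and 0.942 in the PBS males, 1.07 and 1.43 in the LPS females, 1.04 and 1.11 in the LPS males, 0.792 and 0.928 in the LPS+DMA females and 0.759 and 1.19 in the LPS+DMA males. All 4 LPS values lay above all 4 PBS values. Nfkb2 was the 1 member of 10 whose arms did not overlap in LPS against PBS, a separation that 6.89% of all genes tested showed. No member's arms were separate in LPS+DMA against LPS, where those of 12.2% of genes were, or in LPS+DMA against PBS, where those of 6.64% were. The log2 change of Nfkb2 was 0.19 in LPS against PBS (SE 0.12, limma adjusted p = 0.597), -0.18 in LPS+DMA against LPS (adjusted p = 0.357) and 0.013 in LPS+DMA against PBS (adjusted p = 0.975). Nfkb2 overlaps Psd, a gene on the opposite strand at a mean of 33.4 FPKM, by 299 bases. The labels describe a stranded and an unstranded preparation without saying which was used, so a share of its reads may belong to Psd.

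Rela (ENSMUSG00000024927), the main activating subunit of the classical pathway, lies on chromosome 19 from 5687511 to 5698158 on the plus strand (GRCm39). It stood at 5.80, 6.19, 6.34 and 5.96 FPKM in PBS (females first), 8.29, 5.63, 5.87 and 6.54 in LPS and 4.65, 5.23, 8.47 and 4.89 in LPS+DMA. Apart from LPS female replicate 1 and LPS+DMA male replicate 1, which reached over 8 FPKM, the libraries of the 3 arms lay between 4.65 and 6.54. Relb (ENSMUSG00000002983), the activating subunit of the alternative pathway, stood at 1.02, 1.32, 0.994 and 1.05 FPKM in PBS, 1.00, 1.42, 0.898 and 0.802 in LPS and 0.912, 0.946, 1.61 and 0.900 in LPS+DMA. Its 3 highest values came from 1 library of each arm. In GRCm39 Relb spans 19340142 to 19363363 on chromosome 7, and Rel 23686847 to 23720970 on chromosome 11, both on the minus strand. Rel (ENSMUSG00000020275), the subunit best known from lymphocytes and myeloid cells, ranged from 0.431 to 1.12 FPKM, with its highest value in PBS female replicate 2 and the second highest, 1.01, in LPS+DMA male replicate 1. Together with Nfkbib and Nfkbiz, these 3 genes changed by -0.12 to 0.088 in LPS against PBS, -0.17 to 0.13 in LPS+DMA against LPS and -0.18 to 0.059 in LPS+DMA against PBS (limma, adjusted p from 0.522 to 0.983 over all 3). Their 95% intervals stayed within -0.565 and 0.49 on the log2 scale.

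The largest fold between libraries belonged to Nfkbie. Nfkbie (ENSMUSG00000023947), which encodes the inhibitor IkB-epsilon, lies on chromosome 17 from 45866629 to 45874095 on the plus strand (GRCm39). It stood at 1.63 and 0.579 FPKM in the PBS females, 0.726 and 0.408 in the PBS males, 2.55 and 0.369 in the LPS females, 1.02 and 2.24 in the LPS males, 0.538 and 0.430 in the LPS+DMA females and 0.261 and 0.707 in the LPS+DMA males. The highest value was 9.77 times the lowest, and the LPS arm held both the highest library and one of the lowest. The mean was 1.54 ± 1.02 FPKM in LPS, 0.836 ± 0.546 in PBS and 0.484 ± 0.187 in LPS+DMA (SD, n = 4). The log2 change was -0.69 in LPS+DMA against LPS (SE 0.30, 95% interval -1.34 to -0.036, unadjusted p = 0.0404, limma adjusted p = 0.156), 0.41 in LPS against PBS (adjusted p = 0.652) and -0.27 in LPS+DMA against PBS (adjusted p = 0.734).

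Nfkbie values overlapped between the arms and were separate between libraries with and without cerebellar signal. Those 4 libraries stood at 1.02 to 2.55 FPKM and the other 8 at 0.261 to 0.726, with a gap between them. All 4 lay above all 8 in 3.45% of the genes tested. Among the 8, PBS stood at 0.408 to 0.726 in 3 libraries, LPS at 0.369 in 1 and LPS+DMA at 0.261 to 0.707 in 4. In these 8 the change in LPS+DMA against LPS was 0.12 (limma adjusted p = 1) and rested on a single LPS library. With the difference of forebrain and cerebellum markers as a covariate over all 12 libraries it was 0.25 (adjusted p = 0.754). In LPS against PBS the value also turned, to -0.21 in the 8 libraries and to -0.18 with the covariate. Leaving out LPS female replicate 2, the LPS library without cerebellar signal, gave -0.996 in LPS+DMA against LPS (limma adjusted p = 0.0163), the single setting of 26 in which a member passed. In that setting 17.7% of all genes did, beside 1 of 10 members. The 2 genes with the most similar pattern over 12 libraries were Skor2 (Pearson r = 0.979, Spearman rho = 0.916) and Chn2 (r = 0.974, rho = 0.881), and without the 4 libraries r was 0.807 and 0.718.

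**Figure D3:**
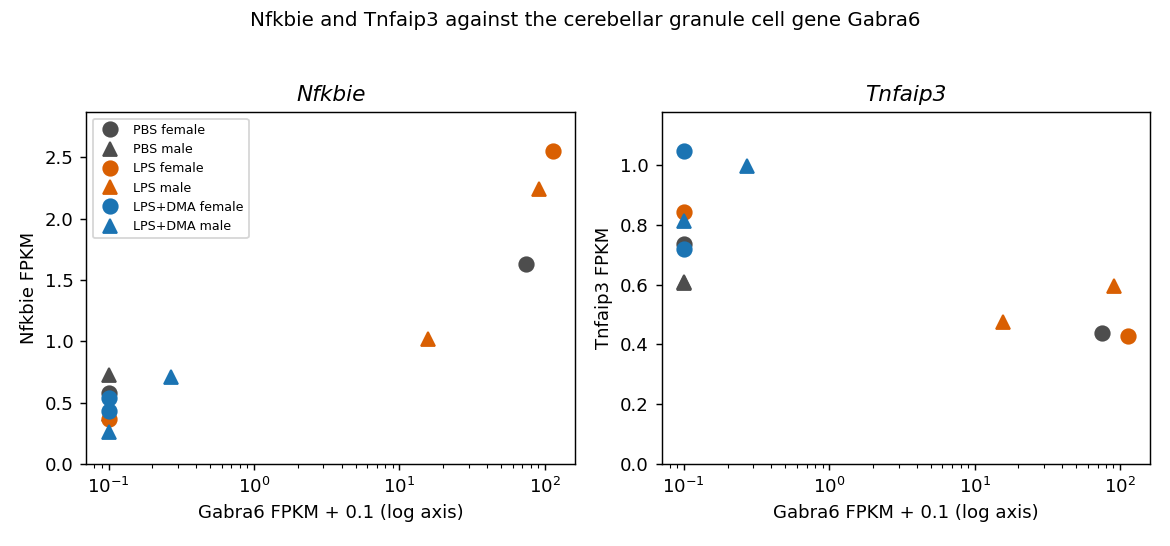
FPKM of Nfkbie (left) and Tnfaip3 (right) against FPKM of Gabra6 + 0.1 on a log axis, 1 point per library, coloured by arm with circles for females and triangles for males. The 4 libraries with Gabra6 at 15.6 FPKM or more hold the 4 highest Nfkbie values and the 4 lowest Tnfaip3 values.

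Tnfaip3 showed the opposite order. This gene (ENSMUSG00000019850), whose product removes activating ubiquitin chains upstream of the IkB kinase, lies on chromosome 10 from 18876658 to 18891405 on the minus strand (GRCm39). It stood at 0.439 and 0.735 FPKM in the PBS females, 0.604 and 0.610 in the PBS males, 0.428 and 0.843 in the LPS females, 0.476 and 0.594 in the LPS males, 1.04 and 0.720 in the LPS+DMA females and 0.811 and 0.995 in the LPS+DMA males. The 4 libraries with cerebellar signal, at 0.429 to 0.594, lay below the other 8, at 0.604 to 1.05, as they did in 4.21% of the genes tested. LPS+DMA was highest on average, 0.893 ± 0.153 against 0.585 ± 0.186 in LPS and 0.597 ± 0.121 in PBS (SD, n = 4). The log2 change was 0.26 in LPS+DMA against LPS (SE 0.13, limma adjusted p = 0.206), 0.24 in LPS+DMA against PBS (adjusted p = 0.482) and -0.015 in LPS against PBS (adjusted p = 0.979). The last value turned above 0 when any of 3 single libraries was left out. The covariate for forebrain and cerebellum left 0.02 in LPS+DMA against LPS (adjusted p = 0.977).

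Nfkbia was even in PBS and LPS and uneven in LPS+DMA. Nfkbia (ENSMUSG00000021025), whose product is destroyed and then quickly resynthesised during NF-kB activation, lies on chromosome 12 from 55536195 to 55539432 on the minus strand (GRCm39). It stood at 9.08 and 8.94 FPKM in the PBS females, 8.80 and 9.99 in the PBS males, 9.62 and 10.1 in the LPS females, 10.7 and 11.2 in the LPS males, 8.86 and 12.9 in the LPS+DMA females and 29.8 and 7.00 in the LPS+DMA males. The LPS+DMA arm thus held the 2 highest values, in female replicate 2 and male replicate 1, and the lowest of all 12, in male replicate 2. The mean was 14.6 ± 10.4 FPKM in LPS+DMA, against 9.20 ± 0.538 in PBS and 10.4 ± 0.694 in LPS (SD, n = 4). The log2 change was 0.16 in LPS against PBS (SE 0.31, limma adjusted p = 0.887), 0.25 in LPS+DMA against LPS (adjusted p = 0.635) and 0.41 in LPS+DMA against PBS (adjusted p = 0.622). Without LPS+DMA male replicate 1 the last 2 became -0.16 and 0.0069, and without LPS+DMA male replicate 2 they became 0.57 and 0.74, none of which passed the threshold. The ratio of Nfkbia to Rela FPKM was 1.39 to 1.67 in PBS, 1.16 to 1.83 in LPS and 1.43 to 3.52 in LPS+DMA.

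Nfkbib (ENSMUSG00000030595), which encodes IkB-beta, stood at 6.37, 6.90, 7.32 and 7.80 FPKM in PBS (females first), 6.91, 8.52, 6.02 and 6.67 in LPS and 6.13, 4.88, 9.22 and 4.96 in LPS+DMA. LPS+DMA held the highest and the 2 lowest libraries. Nfkbib overlaps Sirt2 by 778 bases on the opposite strand, at a mean of 21.9 FPKM, so the same limit of strand applies. Nfkbiz (ENSMUSG00000035356), a nuclear IkB protein that acts as a cofactor at a subset of NF-kB targets, stood at 0.981, 0.983, 0.732 and 0.724 FPKM in PBS, 0.611, 0.620, 1.06 and 0.815 in LPS and 0.764, 1.07, 1.52 and 0.506 in LPS+DMA. Its 3 arms overlapped, and LPS+DMA again held both the highest and the lowest library. Nfkbib spans 28457676 to 28466937 on chromosome 7 and Nfkbiz 55631738 to 55659262 on chromosome 16, both on the minus strand (GRCm39).

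LPS+DMA male replicate 1 stood apart for the members. It had the highest value of 12 for Rela, Relb, Nfkbia, Nfkbib and Nfkbiz, 5 of 10 members, and the lowest for Nfkb2 and Nfkbie. No share of all genes was computed for the lowest value, which LPS female replicate 1 and LPS+DMA male replicate 2 also held for 2 members each. LPS+DMA male replicate 1 was the highest of 12 for 23.1% of all genes tested. It was the highest for 8 of 15 tested genes of the IkB kinase list, 1 of 17 adaptors and receptors and 6 of 21 targets. In the list of ubiquitin editing and other regulation it was the highest for 7 of 19. Genes that respond to glucocorticoids, named after their values were seen, were also high in it. Fkbp5, a cochaperone of the glucocorticoid receptor, stood at 19.3 FPKM against at most 9.01 in the other 11 libraries. Per1, a clock gene that glucocorticoids induce, stood at 60.6 FPKM against at most 15.7, and Tsc22d3 at 48.9 against at most 28.8. Its marker sums were the lowest of the 12 for 7 of 11 marker lists, those of microglia (124 FPKM), astrocytes (515), neurons (902), oligodendrocytes (440), choroid plexus (22.4), red blood cells (29.1) and cerebellum (69.9). The part of these differences in the member values was not tested.

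**Figure D4:**
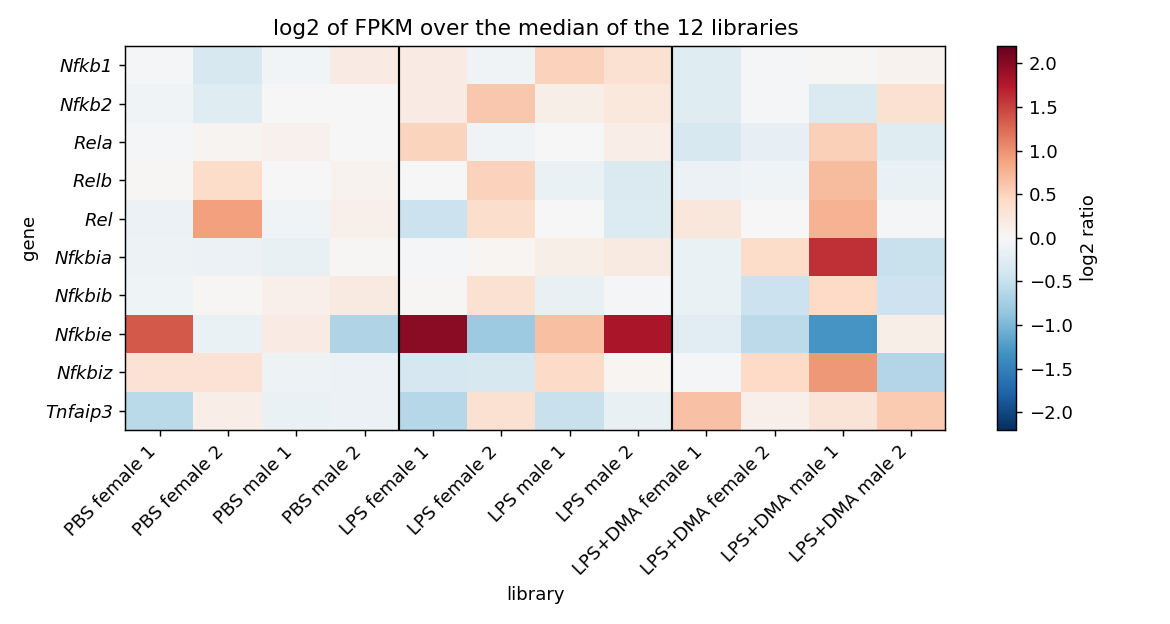
The log2 ratio of each gene's FPKM to its median over 12 libraries (colour), with genes as rows and libraries as columns in the order PBS, LPS and LPS+DMA. Nfkbie is high in 4 libraries of 2 arms, and LPS+DMA male replicate 1 is high for 5 genes that reach their highest value of 12 there.

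No member's change differed between the sexes by the test, and levels of males and females were not compared. By limma, 0 of 10 had a male change that differed from the female change in any of the 3 comparisons, where 0% of all genes did in each. At an unadjusted p under 0.05 the counts were also 0 in each, and the lowest p of a member was 0.136. With 2 mice per sex and arm the differences were loosely bounded: for Nfkbia in LPS+DMA against LPS the male minus the female change was 0.28 on the log2 scale with an SE of 0.69. Without LPS+DMA male replicate 2 that difference was 1.26 (limma adjusted p = 0.0428), and in LPS+DMA against PBS it was 1.34 (adjusted p = 0.0337). In those fits 4.02% and 4.86% of all genes passed, beside 1 of 10 members. Both then rest on LPS+DMA male replicate 1 as the single male of its arm, assumed to vary like the other groups.

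The genes around the members were read from 4 lists of pathway genes. Of the IkB kinase complex and the kinases upstream of it, 15 of 16 were tested and 0 passed in any comparison. An unadjusted p under 0.05 was held by 0, 3 and 1 of the 15, beside 10.96%, 28.4% and 11.4% of all genes. The median change of the list was -0.014 in LPS against PBS, then 0.087 against LPS and 0.032 against PBS for the arm with DMA.

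Of 19 adaptors and receptors that feed NF-kB, 17 were tested and 0 passed in LPS against PBS, although 7 had an unadjusted p under 0.05 and 15 of 17 changes lay above 0 (median 0.19). Over all genes 10.96% had such a p and 48.3% of changes lay above 0. Markers of several cell types lay above 0 in the same comparison, 9 of 10 for microglia (median 0.41), 8 of 8 for endothelium (median 0.44) and 9 of 9 for choroid plexus (median 1.45). So did 10 of 10 for cerebellum (median 1.49), 8 of 8 for oligodendrocytes (median 0.58) and 5 of 5 for red blood cells (median 2.29). Markers of astrocytes and neurons were mixed, with 5 of 8 and 4 of 8 above 0. Of 8 forebrain markers 6 lay below 0 (median -1.58). In each of these marker lists 0 passed the threshold, and their part in the list of adaptors and receptors was not tested. The lowest p-values among adaptors and receptors were those of the TNF receptor Tnfrsf1a, at 0.42 (limma adjusted p = 0.300), and the interleukin receptor Il1r1, at 0.52 (adjusted p = 0.310). Next came the LPS coreceptor Cd14, at 0.60 (adjusted p = 0.310), and the lipoprotein receptor Tlr2, at 0.52 (adjusted p = 0.324). Of the 17 changes in LPS+DMA against LPS, 13 lay below 0 (median -0.29), 8 had an unadjusted p under 0.05 and 1 passed. Over all genes these shares were 48.75%, 28.4% and 9.67%. The 1 that passed was Tradd, the adaptor of the TNF receptor, which fell by 0.68 (limma adjusted p = 0.0490). Its FPKM was 3.06 to 4.12 in LPS and 1.01 to 2.60 in LPS+DMA. Tlr2 had a change of -0.57 there (adjusted p = 0.0592). The count in LPS+DMA against PBS was 0 of 17, with 3 at an unadjusted p under 0.05, where 11.4% of all genes had such a p.

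Of 20 genes for ubiquitin editing and other regulation of NF-kB, 19 were tested. Of these, 0 passed in LPS against PBS or in LPS+DMA against PBS. An unadjusted p under 0.05 was held by 5 and 3 of them, beside 10.96% and 11.4% of all genes. In LPS+DMA against LPS 1 of 19 rose and 2 fell, where 5.79% of all genes rose and 3.88% fell, and the list's median was 0.11. Cyld, a deubiquitinase that trims activating chains, rose by 0.97 (limma adjusted p = 0.0240), from 7.93 to 15.1 FPKM in LPS to 14.4 to 26.9 in LPS+DMA. Pdlim2, which promotes the breakdown of nuclear Rela, fell by 1.24 (adjusted p = 0.0189), from 3.32 to 5.82 FPKM to 0.844 to 1.75. Tnip1, a ubiquitin-binding partner of the Tnfaip3 product, fell by 0.38 (adjusted p = 0.0306), from 7.45 to 8.90 FPKM to 5.66 to 6.69. The libraries of both arms were separate for Pdlim2 and Tnip1 and overlapped for Cyld.

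Of 34 textbook target genes of NF-kB, 21 were tested. The 13 not tested, among them Tnf, Il6, Il1b, Nos2, Ccl3, Ccl4, Cxcl1 and Cxcl2, were too low. In LPS against PBS 1 of 21 passed, the acute-phase gene Saa3, which rose by 1.72 (limma adjusted p = 0.0250), from a listed 0 FPKM in all 4 PBS libraries to 1.61 to 3.18 in LPS. That call held in 10 of 26 alternatives and in 3 of the 12 that left out 1 library, and the change was 1.595 at the lowest over all 26. In LPS+DMA against LPS 4 of 21 fell and 1 rose (median -0.17), where 3.88% of all genes fell and 5.79% rose. Saa3 fell by 1.50 (adjusted p = 0.0172) and the complement gene C3 by 0.78 (adjusted p = 0.0188). The activation marker Cd83 fell by 1.30 (adjusted p = 0.0188) and the chemokine gene Ccl5 by 1.18 (adjusted p = 0.0240). C3 stayed at or below 0.487 FPKM in PBS and 0.441 in LPS+DMA, so only the LPS arm brought it past the filter of 0.5 FPKM. Saa3 and Ccl5 likewise met the filter's 2 libraries only with the LPS arm. The counts among the 21 thus depend in part on a filter that favours genes high in LPS. The gene that rose was Ptgs2, the inducible cyclooxygenase that neurons also express, by 0.76 (adjusted p = 0.0399). Against PBS, 0 of 21 passed in LPS+DMA, with 3 at an unadjusted p under 0.05, where 11.4% of all genes had such a p.

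Other measures moved with these list genes in LPS+DMA against LPS. Of 10 microglia markers 7 fell and 0 rose, and their summed FPKM was 210 to 287 in LPS and 124 to 158 in LPS+DMA. Of 9 choroid plexus markers 5 fell, with sums of 253 to 2002 and 22.4 to 497. Of 8 forebrain markers 5 rose and 0 fell. Of 10 cerebellum markers 1 fell, and all 10 changes lay below 0 (median -3.02). Among 8 astrocyte markers 1 rose and 2 fell, among 8 neuron markers 2 rose and 2 fell, and among 8 oligodendrocyte markers 1 fell. No tested marker of endothelium, red blood cells, neutrophils or lymphocytes passed. Over all genes 5.79% rose and 3.88% fell. None of the 9 list genes that passed did so with a covariate for forebrain and cerebellum, with covariates for choroid plexus and red blood cells, in the 8 libraries without cerebellar signal, where LPS has 1 library, or when the fit held only the 2 arms compared. These settings called 2, 0, 5 and 5 of all genes in place of 1892. The fit of only the 2 arms compared could not turn a sign, since its changes are those of the full fit. In the other settings named, all 9 changes kept their sign. That of Saa3 ran from -1.96 to -1.50 over the 4 settings, that of Tnip1 from -0.38 to -0.33, that of Ccl5 from -1.18 to -0.93 and that of Pdlim2 from -1.24 to -0.79. Smaller values were reached by C3 (-0.44), Cd83 (-0.60), Cyld (0.41), Tradd (-0.20) and Ptgs2 (0.096). The same count went to 11 without LPS female replicate 1, to 7 when male replicate 1 of that arm was left out and to 22 when its male replicate 2 was. The call of Tradd also ended without a sex term and with voom on recovered reads. Leaving out 1 library at a time ended the call of Tradd in 11 of 12 fits, that of Ptgs2 in 10 and that of Tnip1 in 8.

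**Figure D5:**
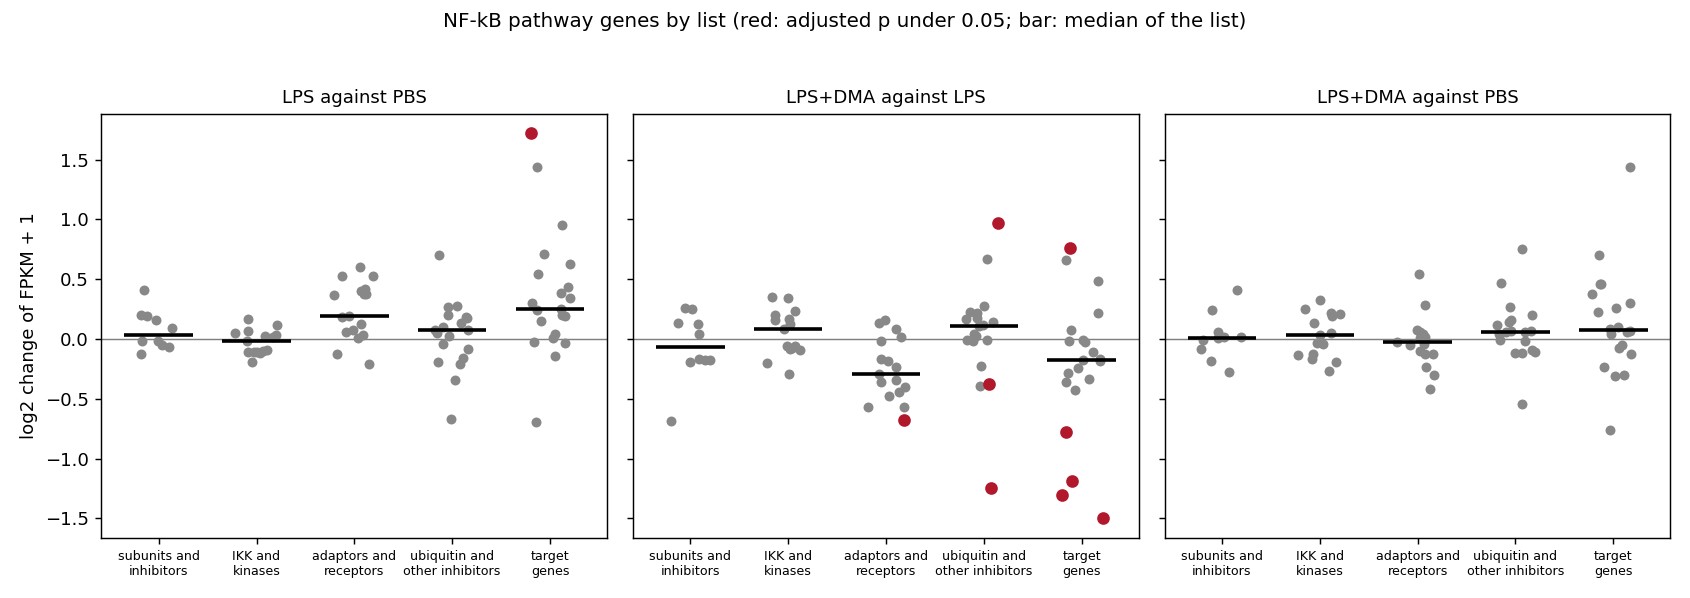
The log2 change of FPKM + 1 of each tested gene (points) in the 10 subunits and inhibitors and in 4 pathway lists, for the 3 comparisons, with red for an adjusted p under 0.05 and a bar at the median of the list. The red points are Saa3 in LPS against PBS and 9 genes outside the first column in LPS+DMA against LPS.

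The genes most like each member over the 12 libraries differed from one member to the next. Nfkb1 went most closely with Lpin1 (Pearson r = 0.965, Spearman rho = 0.979) and Endod1 (r = 0.944), and without the libraries with cerebellar signal r was 0.901 and 0.932. Tnfaip3 went with Anxa11 (r = 0.925, rho = 0.972) and Adap1 (r = 0.903), with r of 0.927 and 0.924 without those libraries. Nfkbia went with Nup88 (r = 0.967, rho = 0.608) and Txnip (r = 0.966, rho = 0.839), and without LPS+DMA male replicate 1 r was 0.778 and 0.826. Rela went with Trappc3 and Puf60 (r = 0.908 and 0.901), Nfkb2 with Zscan20 and Elp3 (0.875 and 0.853), Relb with Zpr1 and Fbxo4 (0.933 and 0.925), Rel with Rd3l and Dcx (0.917 and 0.908), Nfkbib with Stoml1 and Spry1 (0.926 and 0.879) and Nfkbiz with Memo1 and Ddx47 (0.881 and 0.877). These genes are the highest of all coding genes tested, so the correlations are a description, and the points share library, region and arm. Among the members themselves the closest pairs were Nfkbia with Nfkbiz (r = 0.802, and 0.579 without LPS+DMA male replicate 1) and Relb with Rel (0.801, and 0.714 without it).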

How the data were processed

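RNA was measured in 12 mouse brains, 1 library each, with the arm and sex of each mouse taken from the labels. FPKM values were made by the authors and deposited as 1 table with gene names, lengths and GRCm39 coordinates, and no per-sample column of it was left unused. The submitters' processing notes list HISAT2 2.2.1, STAR, featureCounts 2.0.6, fastp, GATK, edgeR and DESeq2, in no stated role, and the build GRCm39. Each FPKM of up to 1000 reads was a whole number of reads within 0.1 reads (100% of values), from which depth was recovered, 27.5 to 41.4 M reads (megareads) per library. The total of FPKM times length in kilobases differed between libraries, so the deposited values carry a scaling other than a plain total. It was 951900 to 988700 in PBS, 917000 to 962600 in LPS and 1029000 to 1103000 in LPS+DMA. All LPS+DMA libraries thus lay above those of the other arms in this total.

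The members and the gene lists were chosen with earlier results of these data known. The 19571 genes that reached 0.5 FPKM in 2 or more of the 12 libraries were fitted as log2(FPKM + 1) with limma 3.58.1 in R 4.3.3, with arm and sex as terms, moderated variances that follow the mean and are robust to outlying genes, and Benjamini-Hochberg adjustment over all genes tested at 0.05. Sex differences in the changes used 1 mean per arm and sex. The script was tested on simulated data. Figures were drawn with matplotlib 3.10.9 in Python 3.11.15.

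All 10 members are named. Of each pathway list the rule allows the 4 genes with the lowest p in each comparison and every gene that passed, of which a part is named. For likeness it takes the 2 coding genes with the highest Pearson r. Single changes are given for members with an unadjusted p under 0.2 in any comparison and for Nfkbia, a choice made after the alternatives had been run. Promoters came from RefSeq (GRCm38.p6), and Nfkb1, Relb and Nfkbiz were not matched. Alternatives covered pseudocount, filter, scaling, variance model, terms and samples in the fit, tissue markers as covariates, voom on recovered reads and each library left out in turn. Replicates are separate animals per the labels.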

Additional observations from a re-analysis of the deposited data

Results flagged for a closer look

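In groups of 4 libraries, a value counts as far from the others when its gap to the nearest one, divided by the range of the group, is above Dixon's 95% critical value, which chance gives in about 1 of 20 groups. Of 30 groups (10 genes in 3 arms) 3 did. Rela in LPS+DMA had a gap of 0.847 of its range, with male replicate 1 at 8.47 FPKM and the other 3 at 4.65 to 5.23. Relb in LPS+DMA had a gap of 0.936, with the same library at 1.61 and the others at 0.900 to 0.946. Relb in PBS had a gap of 0.836, with female replicate 2 at 1.32 and the others at 0.994 to 1.05.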

How the results depend on the processing

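Over all alternatives the 10 members gave 771 values of change, of which 67 had the sign opposite to the reported value and 1 passed the threshold. Leaving out 1 library gave 26 of 360 such signs, and the other alternatives 41 of 411. Which single changes are given was decided after these signs had been seen. The 360 and the 411 include values whose sign was fixed by the design. A change between 2 arms stays the same when a library of the other arm is left out. The same holds for the other variance model and for a fit without a sex term. It holds too for the replicate block of sex and label number and for only the 2 arms compared. In LPS+DMA against LPS the median of all genes was 0.010 in each of these settings. These values were not counted apart.

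With every library scaled to the same total, the change of Tnfaip3 in LPS against PBS was 0.0030, and those of Nfkb1 and Nfkb2 in LPS+DMA against PBS -0.077 and -0.057. With the forebrain and cerebellum covariate, Nfkbie was -0.18 in LPS against PBS, 0.25 in LPS+DMA against LPS and 0.071 in LPS+DMA against PBS, Tnfaip3 0.14 in LPS against PBS and Nfkb2 -0.022 in LPS+DMA against PBS. With the choroid plexus and red blood cell covariates, Nfkbie was -0.022 and Tnfaip3 0.18 in LPS against PBS, Nfkbia -0.27 in LPS+DMA against LPS, and Nfkb1 -0.033 and Nfkb2 -0.0025 in LPS+DMA against PBS. Without the libraries with cerebellar signal, Nfkbie was -0.21 in LPS against PBS and 0.12 in LPS+DMA against LPS, and Tnfaip3 0.14 in LPS against PBS. With voom on recovered reads, Nfkb2 was -0.0029 in LPS+DMA against PBS. The cause of these turns was not tested.

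With 1 library left out, Tnfaip3 ran from -0.097 to 0.041 in LPS against PBS, Nfkbia from -0.16 to 0.57 in LPS+DMA against LPS, and Nfkb1 from -0.022 to 0.053 and Nfkb2 from -0.059 to 0.060 in LPS+DMA against PBS. The count of members past the threshold ran from 0 to 1 in LPS+DMA against LPS and stayed at 0 in the other comparisons, and that of members with a sex difference ran from 0 to 1 in LPS+DMA against LPS and in LPS+DMA against PBS. The counts over all genes depended on the setting. In LPS+DMA against LPS they ran from 7 (without LPS male replicate 1) to 3465 (without LPS female replicate 2) with 1 library left out and from 0 to 2873 otherwise. In LPS against PBS they ran from 0 to 672 and from 0 to 4, and in LPS+DMA against PBS from 0 to 6 and from 0 to 2. Scaling to the same total moved the median of all genes to -0.11 in LPS+DMA against LPS, with 588 genes higher and 2285 lower in place of 1133 and 759.

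Deviations of same-numbered mice correlated from -0.071 to 0.45 across genes over 6 pairs of arms and sexes, with 3 of 6 under 0. With 2 mice per arm and sex the 2 deviations mirror each other, so each pair of arms gives 1 value. The check cannot tell whether the label numbers pair the mice. The highest value was that of females in LPS against PBS, where replicate 1 of both arms had cerebellar signal. With sex and label number as a replicate block, 0 members passed in any comparison, and 1, 2040 and 1 of all genes did. Rel, Nfkbiz and Tnfaip3 gave no value under the stricter filter of FPKM of at least 1 in at least 4 libraries. Depth limits Nfkbie most, whose lowest library holds 26 reads.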
